A study of Bos taurus with 8 samples.

Results

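The genes described here are oocyte NLRP genes and the subcortical maternal complex of cattle embryos. They were chosen by symbol from a list of 9 names: NLRP2, NLRP5, NLRP8, NLRP9, NLRP13, NLRP14, OOEP, TLE6 and PADI6. Of these 9, 6 had a row of that symbol among the 21258 features measured: NLRP5, NLRP8, NLRP9, NLRP14, OOEP and PADI6. The remaining 3 names had no such row. For them, 3 rows were found by a gene number (NLRP2) or by the protein descriptions in the files (NLRP13 and TLE6). These 3 rows are given beside the 6 members but are not counted among them.

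The subcortical maternal complex is a protein assembly stored in the egg beneath the cell surface and inherited by the early embryo. In mice it is built from NLRP5 (also called MATER), OOEP, TLE6 and KHDC3, and embryos whose mothers lack NLRP5, OOEP or TLE6 arrest during early cleavage. Its transcripts are made in the growing oocyte, so the early embryo carries them as maternal RNA until they are degraded around the time its own genome becomes active, which in cattle falls near the stage sampled here. NLRP proteins share a NACHT domain and leucine-rich repeats. Most family members outside the germ line belong to innate immunity, whereas the genes listed here are known mainly from oocytes.

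RNA was measured by sequencing in pools of 8 Holstein embryos at the eight-cell stage. The KDM4E-SCNT group held 2 libraries of embryos made by somatic cell nuclear transfer, in which the nucleus of a body cell replaces that of the egg, with overexpression of KDM4E, a demethylase of lysine 9 of histone H3. The IVF group held 3 libraries of embryos from in vitro fertilisation, and the SCNT group held 3 libraries of nuclear transfer embryos without KDM4E overexpression, which the series names as the control. The labels used here do not give the donor cell type, the way KDM4E was overexpressed or the hour of collection, nor do they say that pools came from separate batches, so p-values cover only how far these samples spread, and that spread may be technical.

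Values are FPKM, fragment counts scaled by transcript length and library size, as the authors deposited them. Depth is unknown from FPKM. Each library had between 10975 and 13050 features at 1 FPKM or above, its top 10 features took 15.8% to 25.7% of all FPKM, and mitochondrial transcripts took 11.0% and 11.5% in KDM4E-SCNT, 6.08% to 7.11% in IVF and 7.54% to 10.6% in SCNT. All 10 oocyte markers examined were measured in every group, with a summed level of 1449 to 2573 FPKM in KDM4E-SCNT, 2461 to 5016 FPKM in IVF and 379.6 to 406.6 FPKM in SCNT. Markers of cumulus and granulosa cells, which surround the egg, summed to 29.4 to 51.5 FPKM in KDM4E-SCNT, 45.9 to 71.8 FPKM in IVF and 8.80 to 15.2 FPKM in SCNT over 7 genes. HAS2 was the largest of the 7 in every library except SCNT replicate 3, where NR5A2 (8.77 FPKM) lay above it (6.01 FPKM). INHBA and CYP11A1 did not exceed 1.66 FPKM, and FSHR, CYP19A1 and AMH did not exceed 0.27 FPKM, in any library. The sum over 8 fibroblast markers was 46.0 to 166.4 FPKM in KDM4E-SCNT, 4.69 to 8.92 FPKM in IVF and 17.4 to 60.1 FPKM in SCNT. In KDM4E-SCNT the largest were LUM (13.4 and 84.6 FPKM) and S100A4 (25.1 and 35.1 FPKM), and POSTN had 0.65 and 28.6 FPKM. COL1A1, COL1A2, COL3A1 and THY1 did not exceed 4.58 FPKM in any library. Over 5 myeloid and lymphoid markers the sum was 5.22 and 6.14 FPKM in KDM4E-SCNT, 7.46 to 11.6 FPKM in IVF and 0.80 to 7.81 FPKM in SCNT.

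On the cattle build UMD3.1, as given in the files, NLRP9 (ENSBTAG00000004725.4) lay on chromosome 18 from 62219311 to 62245235, NLRP8 (ENSBTAG00000006965.5) from 63645889 to 63660919 and NLRP5 (ENSBTAG00000013247.4) from 63668487 to 63683298. NLRP14 (ENSBTAG00000002289.4) lay on chromosome 15 from 46301834 to 46339682. OOEP (ENSBTAG00000019600.4) was at 12981373 to 12982550 on chromosome 9 and PADI6 (ENSBTAG00000038945.2) at 135812788 to 135832714 on chromosome 2. Of the rows without a member symbol, NLRP2 (ENSBTAG00000047953.1) was at 62918864 to 62932174 and NLRP13 (ENSBTAG00000006961.4) at 63607560 to 63639810, both on chromosome 18, and TLE6 (ENSBTAG00000001152.4) was on chromosome 7 from 22019474 to 22023366. Each row pools every transcript model of its locus, from 1 model for OOEP to 9 for NLRP13. The NLRP5 and NLRP13 rows both carry a description of a ZSCAN5B-like zinc finger protein as well, so they may hold reads of another transcript, and reads of near-identical NLRP copies may have been split between rows.

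In the embryos, every member was highest in IVF, lowest in SCNT and between them in KDM4E-SCNT by group mean. NLRP5, the NLRP protein at the core of the complex, had 52.3 and 79.4 FPKM in KDM4E-SCNT, 91.3, 299.1 and 122.7 FPKM in IVF and 7.26, 29.0 and 9.83 FPKM in SCNT. The 3 groups did not overlap, and IVF replicate 2 and SCNT replicate 2 were far above the other libraries of their groups. NLRP5 was 10.8-fold higher in IVF than in SCNT (log2 difference 3.44 ± 0.50, SE, limma adjusted p = 0.000103) and 4.71-fold above SCNT in KDM4E-SCNT (2.24 ± 0.56, limma adjusted p = 0.0103). Differences and folds are on the log2(FPKM + 1) scale, on which changes of low genes come out too small. In a pool of whole embryos, fewer cells carrying a transcript and less of it per cell cannot be told apart. Without IVF replicate 2 the IVF difference was 2.94, and without KDM4E-SCNT replicate 2 the KDM4E-SCNT difference was 1.94 and was no longer called (limma adjusted p = 0.106).

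OOEP, a small KH-domain protein that binds NLRP5 and TLE6 in the mouse complex, had 98.2 and 168.8 FPKM in KDM4E-SCNT, 217.1, 173.4 and 227.6 FPKM in IVF and 24.2, 42.1 and 24.2 FPKM in SCNT. All 3 groups were apart, the higher KDM4E-SCNT library lying just under the lowest IVF library. It was 6.82-fold higher in IVF than in SCNT (2.77 ± 0.31, limma adjusted p = 1.64e-05) and 4.31-fold above SCNT in KDM4E-SCNT (2.11 ± 0.35, limma adjusted p = 0.00158).

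PADI6, an oocyte member of the peptidylarginine deiminase family that in mice is needed for the egg's cytoplasmic lattices, was the least abundant member in all 8 libraries. It had 13.6 and 22.3 FPKM in KDM4E-SCNT, 59.5, 19.7 and 32.1 FPKM in IVF and 4.10, 4.52 and 2.10 FPKM in SCNT. KDM4E-SCNT and IVF overlapped, and both lay above every SCNT library. PADI6 was 7.81-fold higher in IVF than in SCNT (2.97 ± 0.42, limma adjusted p = 7.58e-05) and 4.16-fold above SCNT in KDM4E-SCNT (2.06 ± 0.46, limma adjusted p = 0.00631). Leaving out KDM4E-SCNT replicate 2 ended the KDM4E-SCNT call (1.72, limma adjusted p = 0.0807).

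The row described as TLE6, a relative of the Groucho co-repressors and a core part of the complex in mice, had 9.89 and 16.6 FPKM in KDM4E-SCNT, 26.4, 11.1 and 24.0 FPKM in IVF and 2.09, 2.19 and 1.94 FPKM in SCNT. The SCNT libraries lay close together and below all others, while KDM4E-SCNT and IVF overlapped. The differences from SCNT were 2.72 ± 0.38 for IVF (limma adjusted p = 6.76e-05) and 2.17 ± 0.42 for KDM4E-SCNT (limma adjusted p = 0.00297).

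**Figure D1:**
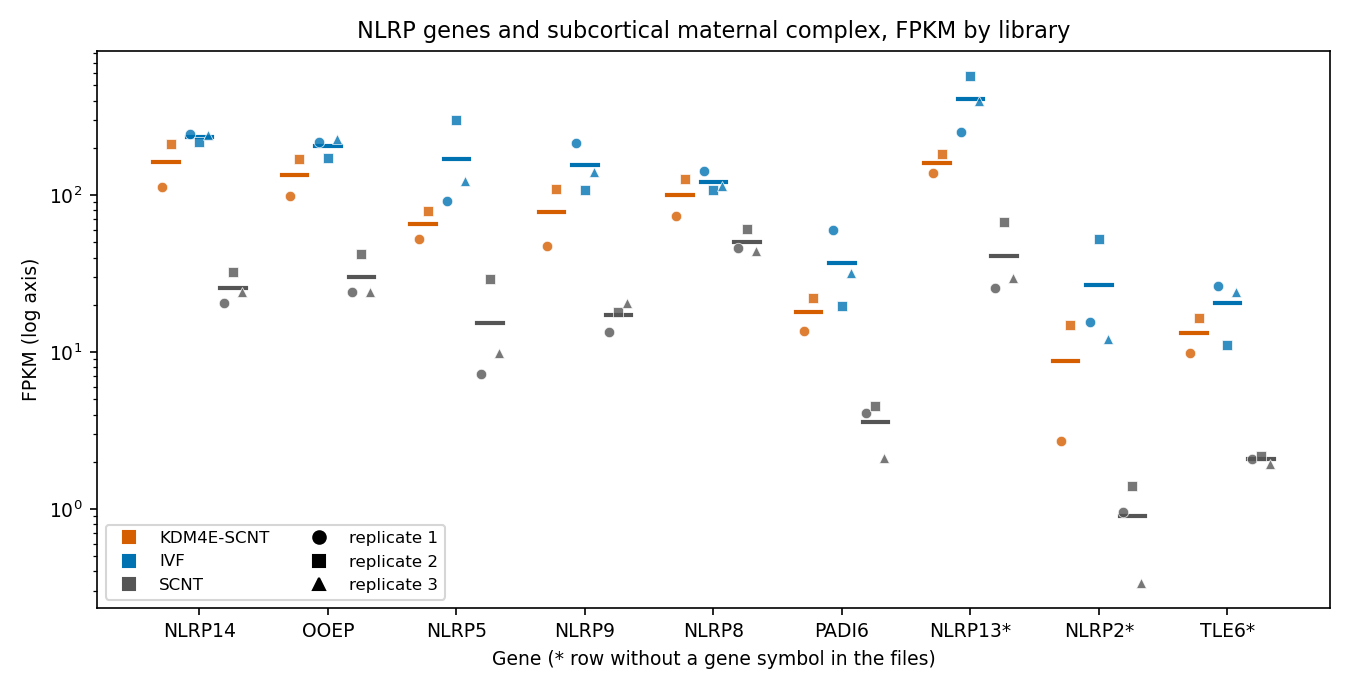
FPKM (log axis) of the 6 members and of the 3 rows without a member symbol (asterisk) in every library, with KDM4E-SCNT, IVF and SCNT side by side for each gene. Points are libraries, shaped by replicate number, and bars are group means; for all 9 rows every SCNT point lies below every KDM4E-SCNT and IVF point.

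Among the NLRP genes outside the core of the complex, NLRP14 was the member with the highest mean level over the 8 libraries. In mice it is needed in the oocyte for early development. It had 113.0 and 211.9 FPKM in KDM4E-SCNT, 246.8, 218.7 and 240.6 FPKM in IVF and 20.5, 32.3 and 24.2 FPKM in SCNT. The groups did not overlap, the IVF libraries lay close together, and the KDM4E-SCNT replicates were 1.88-fold apart. NLRP14 was 9.002-fold higher in IVF than in SCNT (3.17 ± 0.30, limma adjusted p = 4.68e-06) and 5.94-fold above SCNT in KDM4E-SCNT (2.57 ± 0.34, limma adjusted p = 0.000666). Both NLRP14 and OOEP kept the second call under each of the 17 alternative settings tried.

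NLRP9, known in cattle as an oocyte gene, had 47.1 and 110.2 FPKM in KDM4E-SCNT, 214.5, 107.9 and 141.5 FPKM in IVF and 13.3, 18 and 20.4 FPKM in SCNT. KDM4E-SCNT replicate 2 fell within the IVF range and replicate 1 did not, and both lay above all SCNT libraries. The difference from SCNT was 8.31-fold in IVF (3.05 ± 0.37, limma adjusted p = 2.43e-05) and 4.06-fold in KDM4E-SCNT (2.02 ± 0.41, limma adjusted p = 0.00376). Without KDM4E-SCNT replicate 2 the KDM4E-SCNT difference was 1.42 and lost its call (limma adjusted p = 0.0626).

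NLRP8, also an oocyte gene in cattle, differed least. It had 73.5 and 126.7 FPKM in KDM4E-SCNT, 143.2, 107.4 and 114.1 FPKM in IVF and 46.2, 60.8 and 43.9 FPKM in SCNT. KDM4E-SCNT replicate 2 lay inside the IVF range, and KDM4E-SCNT replicate 1 lay nearer to the highest SCNT library than to any IVF library. NLRP8 was 2.39-fold higher in IVF than in SCNT (1.26 ± 0.29, limma adjusted p = 0.00265, 95% interval 0.63 to 1.89) and 1.92-fold above SCNT in KDM4E-SCNT (0.94 ± 0.33, limma adjusted p = 0.0424, interval 0.23 to 1.65). The KDM4E-SCNT call was lost under 10 of 17 alternative settings, over which the adjusted p ranged from 0.0195 to 0.33. Without KDM4E-SCNT replicate 2 the difference was 0.55.

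The row described as NLRP13, whose function is little known, was more abundant than any member by its mean over the 8 libraries, with 138.6 and 184.2 FPKM in KDM4E-SCNT, 252.2, 573.9 and 396.6 FPKM in IVF and 25.8, 67.9 and 29.5 FPKM in SCNT. Every KDM4E-SCNT library lay above every SCNT library and below every IVF library. The differences from SCNT were 3.34 ± 0.39 for IVF (limma adjusted p = 2.01e-05) and 2.07 ± 0.44 for KDM4E-SCNT (limma adjusted p = 0.00456, and 0.0552 without KDM4E-SCNT replicate 2).

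The NLRP2 row was near the lower end of the measurable range in SCNT. In mice NLRP2 has been placed with the subcortical maternal complex. It had 2.73 and 14.9 FPKM in KDM4E-SCNT, 15.6, 52.9 and 12.1 FPKM in IVF and 0.95, 1.40 and 0.34 FPKM in SCNT. It had at least 1 FPKM in 6 of the 8 libraries, 1 of them SCNT, so it met the filter on low values through IVF and KDM4E-SCNT, where it is high. It was the row with the widest spread in KDM4E-SCNT and in IVF. The differences from SCNT were 3.62 ± 0.59 for IVF (limma adjusted p = 0.000218), or 3.00 without IVF replicate 2, and 2.06 ± 0.66 for KDM4E-SCNT (limma adjusted p = 0.03), a call that was lost under 7 of 17 alternative settings and was 1.02 without KDM4E-SCNT replicate 2 (limma adjusted p = 0.359).

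Counted together, all 6 members were higher in IVF than in SCNT, where 34.9% of the 14839 features tested were called higher, 23.6% lower and 58.5% in either direction. The 6 members' median difference was 3.01, against a median of 0.39 over all features. Their differences lay between the 72.7th percentile (NLRP8) and the 99.2nd percentile (NLRP5) of all features. All 6 had IVF libraries above every SCNT library, as did 38.5% of all features. These 6 had at least 1 FPKM in every library, so none entered the test through its high group alone.

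Between KDM4E-SCNT and SCNT all 6 members were also called higher, against 21.6% of the features tested, with 11.0% called lower and 32.6% in either direction. The members' median difference was 2.08, and that of all features was 0.33. All 6 had both KDM4E-SCNT libraries above every SCNT library, as did 38.1% of all features. The count fell to 2 members (NLRP14 and OOEP) without KDM4E-SCNT replicate 2, when 1575 of all features were called, and was 6 without replicate 1. Both comparisons use the same 3 SCNT libraries. A median-ratio scaling of the libraries moved the median of all features to 0.10 for IVF minus SCNT and to 0.02 for KDM4E-SCNT minus SCNT. Under it, 4152 of 8483 calls were higher in IVF, against 5182 of 8680 as deposited, and 2109 of 4866 calls were higher in KDM4E-SCNT, against 3208 of 4844 as deposited. Quantile normalization gave 2092 of 4200 calls higher in KDM4E-SCNT. Relative to those medians the members stayed higher, and NLRP8 in KDM4E-SCNT was the only one of the 6 to lose its call under either scaling.

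KDM4E-SCNT and IVF were compared directly as well. None of the 6 members passed the limma test, against 6.52% of all features called in either direction, 5.90% called higher and 0.620% called lower in KDM4E-SCNT, and 1 member (NLRP9) had an unadjusted p under 0.05. All 6 fitted differences were negative, with a median of -0.79 against -0.03 over all features. The intervals do not show that the groups were alike. They ran from -2.42 to 0.01 for NLRP5 (-1.20 ± 0.56, limma adjusted p = 0.259), from -1.92 to -0.15 for NLRP9 (-1.03 ± 0.41, 0.179) and from -1.92 to 0.10 for PADI6 (-0.91 ± 0.46, 0.303). For OOEP the interval was -1.42 to 0.10 (-0.66 ± 0.35, limma adjusted p = 0.323), for NLRP14 -1.33 to 0.13 (-0.60 ± 0.34, 0.353) and for NLRP8 -1.03 to 0.39 (-0.32 ± 0.33, 0.642). NLRP5, NLRP14 and OOEP had both KDM4E-SCNT libraries below every IVF library, as did 13.9% of all features. The rows of NLRP13 (-1.27 ± 0.44, limma adjusted p = 0.118), NLRP2 (-1.56 ± 0.66, 0.209) and TLE6 (-0.55 ± 0.42, 0.516) did not pass either. When KDM4E-SCNT replicate 2 was left out, NLRP9 was called lower (-1.64, limma adjusted p = 0.0436), and so was the NLRP2 row (-2.61, 0.0447).

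**Figure D2:**
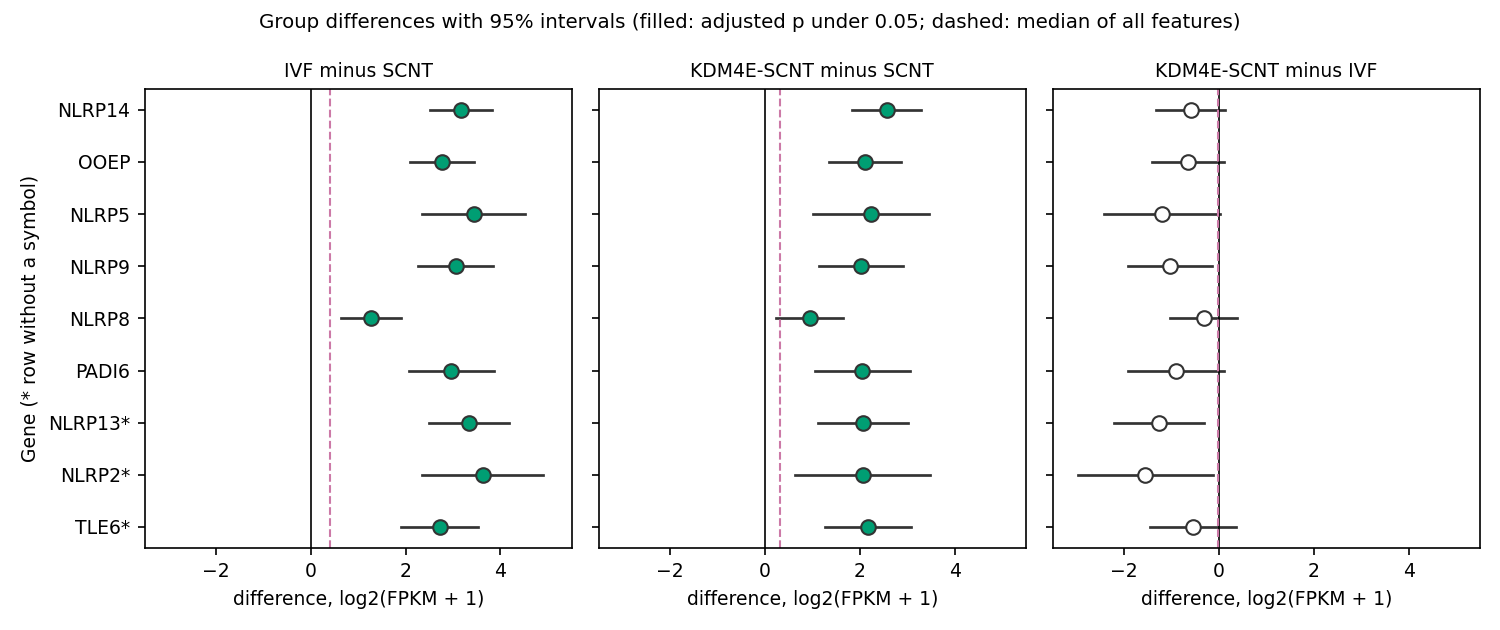
Fitted group differences in log2(FPKM + 1) with 95% intervals for the 6 members and 3 further rows, with filled points called at an adjusted p under 0.05 and a dashed line at the median of all features. All 9 rows are called higher in IVF and in KDM4E-SCNT than in SCNT, with NLRP8 nearest to 0, and none is called between KDM4E-SCNT and IVF. The NLRP2 row met the filter on low values through IVF and KDM4E-SCNT, where it is high.

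Summed over the 6 members, the level was 397.7 and 719.3 FPKM in KDM4E-SCNT, 972.4, 926.3 and 878.6 FPKM in IVF and 115.6, 186.8 and 124.6 FPKM in SCNT. The IVF libraries differed little in this sum although single members differed by several fold between them. As a share of all FPKM, the 6 took 0.0495% and 0.0955% in KDM4E-SCNT, 0.120% to 0.132% in IVF and 0.0137% to 0.0222% in SCNT. In rank among all 21258 features, NLRP14 stood at the 95.2nd and 97.7th percentiles in KDM4E-SCNT, near the 98th in IVF (97.95 to 98.08) and between the 84.1st and 88.4th in SCNT. PADI6 stood between the 78.6th and 83.1st percentiles in KDM4E-SCNT, the 83.0th and 92.3rd in IVF and the 57.8th and 67.2nd in SCNT.

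The make-up of the set differed between groups. By mean FPKM, which is per length, the order in KDM4E-SCNT was NLRP14 (162.5), OOEP (133.5), NLRP8 (100.1), NLRP9 (78.7), NLRP5 (65.8) and PADI6 (17.9). In IVF it was NLRP14 (235.4), OOEP (206.0), NLRP5 (171.0), NLRP9 (154.6), NLRP8 (121.6) and PADI6 (37.1). In SCNT it was NLRP8 (50.3), OOEP (30.2), NLRP14 (25.7), NLRP9 (17.3), NLRP5 (15.4) and PADI6 (3.57). Neighbours in these orders overlapped between libraries, except that PADI6 lay below the next member in every group and that in SCNT NLRP8 lay above OOEP and NLRP14 above NLRP9. NLRP8 made up 18.5% and 17.6% of the sum over members in KDM4E-SCNT, 14.7%, 11.6% and 12.99% in IVF and 39.97%, 32.6% and 35.2% in SCNT.

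Ratios between members within a library need no scaling between libraries. Those given here were chosen after the values were seen and carry no test. NLRP8 over NLRP14 was 0.651 and 0.598 in KDM4E-SCNT, 0.580, 0.491 and 0.474 in IVF and 2.26, 1.88 and 1.82 in SCNT. The KDM4E-SCNT ratios lay near those of IVF and far from those of SCNT. OOEP over NLRP14 moved less, at 0.869 and 0.796 in KDM4E-SCNT, 0.793 to 0.946 in IVF and 1.0 to 1.301 in SCNT. NLRP13 over NLRP5, which lie near each other on chromosome 18, ran from 1.92 to 3.55 over the 8 libraries with the 3 groups overlapping.

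Within groups the genes did not all vary together. In IVF, replicate 2 was the highest library for NLRP5, NLRP13 and NLRP2, by 0.99, 0.57 and 1.25 above the group mean on the log2(FPKM + 1) scale. The same library was the lowest for PADI6 and TLE6, both at -0.74, and for NLRP9 at -0.46. SCNT replicate 2 was the highest SCNT library for every one of the 9 rows but NLRP9, by 1.11 above the group mean for NLRP5, 0.85 for NLRP13, 0.52 for OOEP, 0.38 for NLRP2 and less for the others. KDM4E-SCNT replicate 2 was above replicate 1 for all 9 rows. Among the members the ratio of replicate 2 to replicate 1 ran from 1.52 for NLRP5 to 2.34 for NLRP9, with 5.47 for the NLRP2 row, against a median of 1.12 over 14039 features. Each member's correlation over the 8 libraries with the mean of the others was lowest for NLRP5 (r = 0.891) and highest for OOEP (r = 0.995), a description in which the group differences take the largest part.

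**Figure D3:**
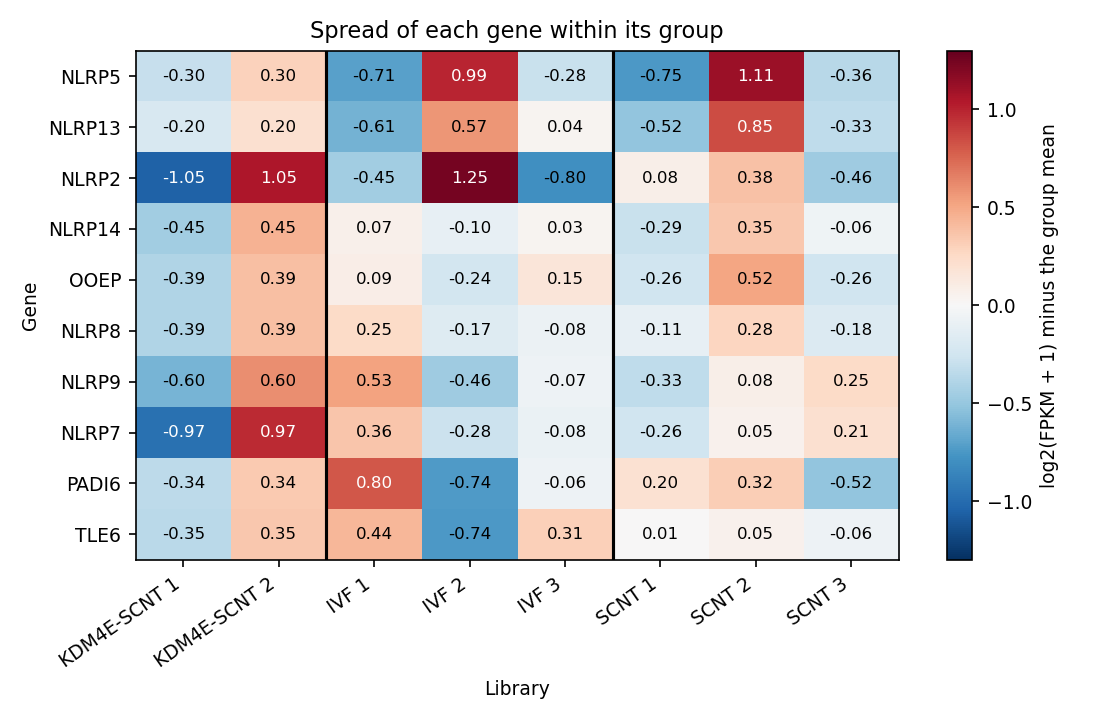
Deviation of log2(FPKM + 1) from the group mean for the 9 rows and the NLRP7 row (rows of the map) in each library (columns), red above and blue below the mean. KDM4E-SCNT replicate 2 and SCNT replicate 2 are above their group means for all rows, whereas IVF replicate 2 is above for NLRP5, NLRP13 and NLRP2 and below for the others.

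On chromosome 18, NLRP13, NLRP8 and NLRP5 followed each other with gaps of 6.08 kb and 7.57 kb and no feature between them. NLRP8, the member that differed least, thus lay between the rows of genes that differed by 3.34 and 3.44 between IVF and SCNT. From the start of NLRP9 to the end of NLRP5 the chromosome held 63 features over 1464 kb. Of these, 6 were NLRP rows, all called higher in IVF and in KDM4E-SCNT than in SCNT, against 34.9% and 21.6% of all features. The NLRP2 row among them met the filter on low values through those groups, where it is high. Of the other 57 features, 31 were tested. Between IVF and SCNT 9 of the 31 were higher, 9 were lower and 13 were not called, with a median of 0.42, near that of all features. Between KDM4E-SCNT and SCNT 5 were higher, 4 were lower and 22 were not called, with a median of 0.55, against 0.33 over all features. Of all features, 23.6% were called lower in IVF and 11.0% in KDM4E-SCNT than in SCNT.

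**Figure D4:**
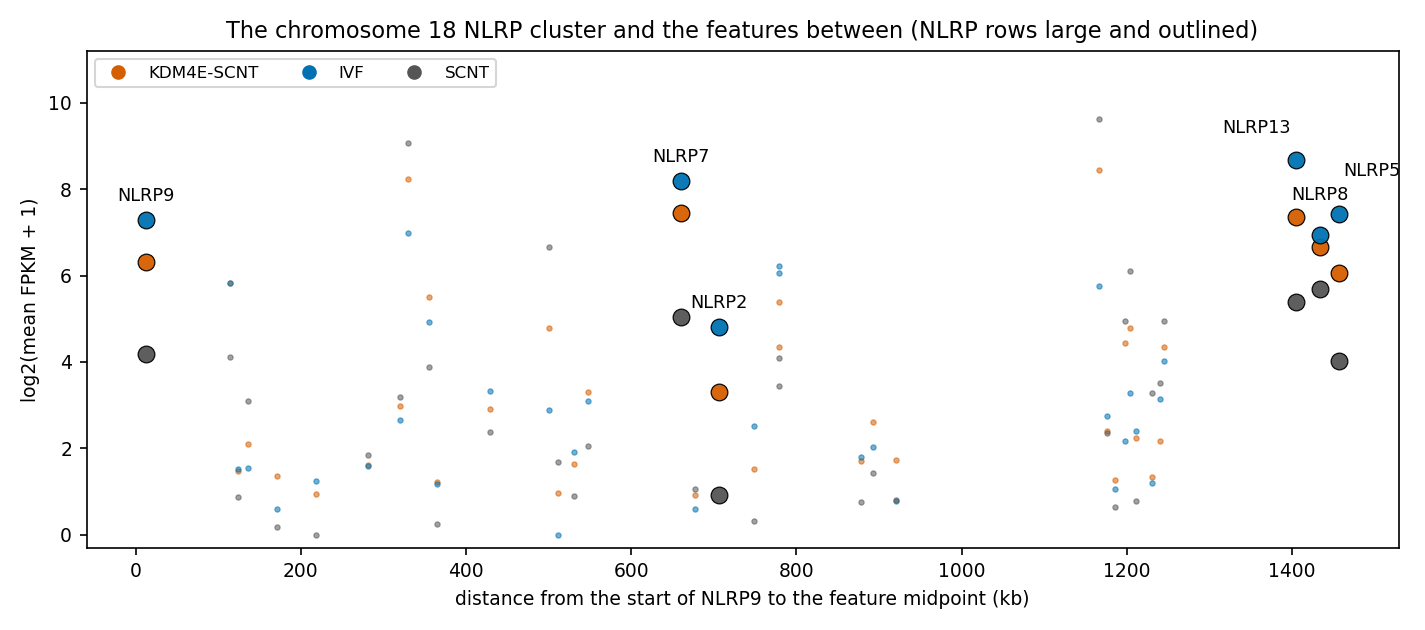
Group means, as log2(mean FPKM + 1), of the tested features from the start of NLRP9 to the end of NLRP5 on chromosome 18, by distance in kb from the start of NLRP9; the 6 NLRP rows are large and outlined, and other features are small. For each NLRP row the IVF mean is highest and the SCNT mean lowest, whereas the features between them have both orders.

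Other reproductive NLRP genes and proteins known to work with the complex or with its members were read from a list of 12 names, 7 of which had a row. Between IVF and SCNT 4 of the 7 were higher, 1 was lower and 2 were not called. Between KDM4E-SCNT and SCNT 3 were higher, 1 was lower and 3 were not called, which became 0 higher and 1 lower without KDM4E-SCNT replicate 2. Of all features, 34.9% were called higher and 23.6% lower in IVF than in SCNT, and 21.6% and 11.0% in KDM4E-SCNT. None of the 7 was called between KDM4E-SCNT and IVF, against 6.52% of all features. The median differences were 1.42 for IVF minus SCNT and 0.71 for KDM4E-SCNT minus SCNT, against 0.39 and 0.33 over all features.

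KHDC3L, the partner of NLRP5 and OOEP in the human complex, was named from its row's description and lay 10.9 kb from OOEP on chromosome 9. It had 35.9 and 124.1 FPKM in KDM4E-SCNT, 146.4, 132.6 and 121.2 FPKM in IVF and 4.27, 21.7 and 5.86 FPKM in SCNT. It was 14.3-fold higher in IVF than in SCNT (3.84 ± 0.53, limma adjusted p = 6.44e-05) and 7.26-fold above SCNT in KDM4E-SCNT (2.86 ± 0.59, limma adjusted p = 0.00404), the second call being lost without KDM4E-SCNT replicate 2. SCNT replicate 2 was the highest SCNT library for both KHDC3L and OOEP.

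NLRP7, an NLRP gene that in women is linked to recurrent hydatidiform moles, lay between NLRP9 and NLRP2 on chromosome 18. It had 70.8 and 274.7 FPKM in KDM4E-SCNT, 366.0, 234.8 and 268.6 FPKM in IVF and 26.3, 32.9 and 36.7 FPKM in SCNT. It was 8.75-fold higher in IVF than in SCNT (3.13 ± 0.41, limma adjusted p = 4.88e-05) and 4.31-fold above SCNT in KDM4E-SCNT (2.11 ± 0.46, limma adjusted p = 0.00556), again without a call when KDM4E-SCNT replicate 2 was left out.

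UHRF1, which guides the maintenance of DNA methylation, had 75.2 and 111.9 FPKM in KDM4E-SCNT, 133.9, 106.9 and 236.1 FPKM in IVF and 61.5, 40.7 and 68.4 FPKM in SCNT. It was 2.67-fold higher in IVF than in SCNT (1.42 ± 0.34, limma adjusted p = 0.00343), and KDM4E-SCNT differed from SCNT by 0.71 ± 0.38 (limma adjusted p = 0.166). CFL1, an actin-severing protein, was not called in either comparison (-1.29 ± 0.54, limma adjusted p = 0.0589, for IVF minus SCNT; -0.92 ± 0.61, 0.258, for KDM4E-SCNT minus SCNT). It had 212.7 and 173.5 FPKM in KDM4E-SCNT, 197.8, 69.1 and 241.6 FPKM in IVF and 875.0, 202.4 and 273.7 FPKM in SCNT, where replicate 1 was far above the others. Its IVF difference was called lower under 4 of 17 alternative settings, median-ratio scaling among them (limma adjusted p = 0.0134).

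**Figure D5:**
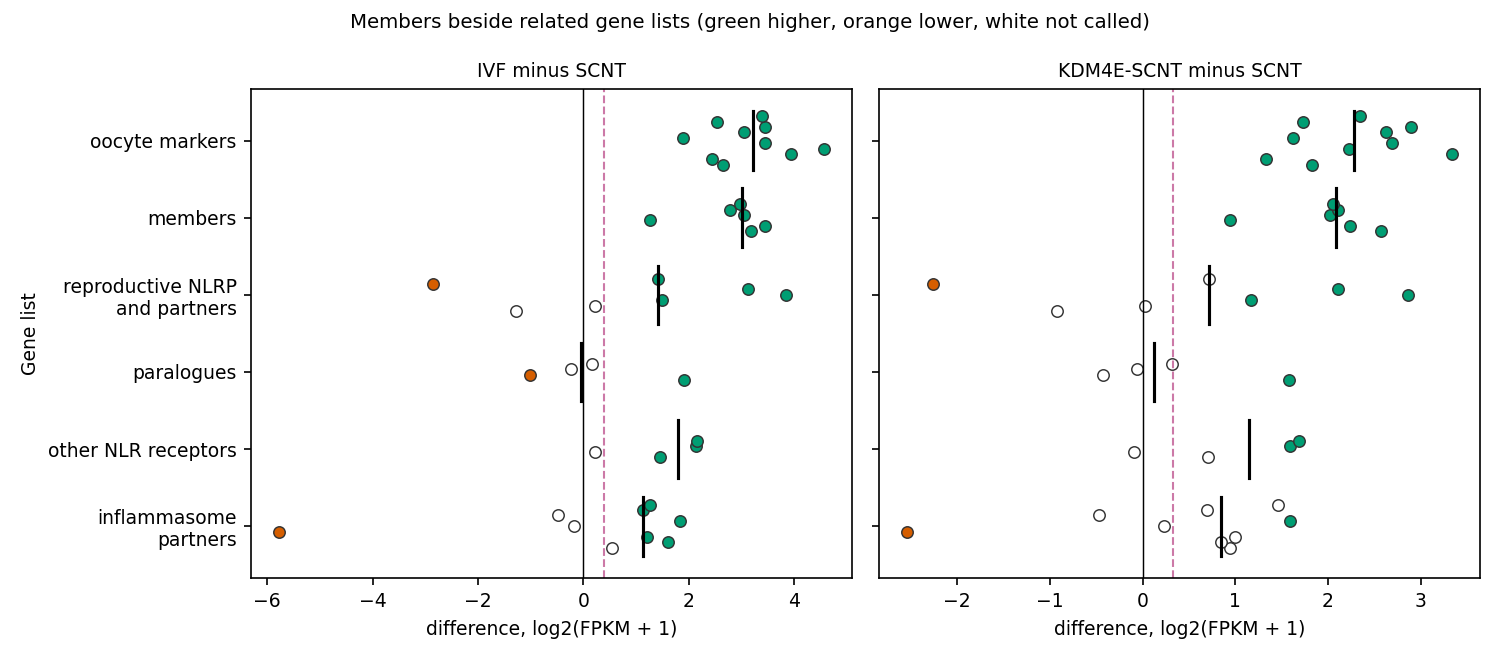
Fitted differences in log2(FPKM + 1) from SCNT for IVF (left) and KDM4E-SCNT (right) in the members and 5 related gene lists (down the page), 1 point per tested gene; black bars are list medians and the dashed line is the median of all features. The members and oocyte markers lie to the right in both panels, while the paralogues and inflammasome partners spread over both sides of 0. The points and medians include AES, NOD1, NLRP1, NLRC4, MEFV, DFNA5, CASP8, FIGLA and NOBOX. These genes met the filter on low values only through IVF or KDM4E-SCNT.

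Relatives of the members that are known outside the oocyte were mostly low or not called. Of 12 names of paralogues of PADI6, TLE6 and OOEP, in which AES and TLE5 are symbols of the same gene, 9 had a row and 4 were tested. TLE1 and TLE4, co-repressors of the Groucho family, averaged 10.4 and 10.2 FPKM over the 8 libraries, close to the TLE6 row, and neither was called in any comparison. AES, a short member of the same family, had 1.63 and 3.72 FPKM in KDM4E-SCNT, 5.99, 2.36 and 2.72 FPKM in IVF and 0.18, 0.18 and 0.17 FPKM in SCNT. It met the filter on low values through the groups in which it is high, so no test is given. TLE2, whose row ends 0.834 kb before that of TLE6, did not exceed 0.12 FPKM in any library. PADI4, 4.24 kb from PADI6, did not exceed 0.06 FPKM, and PADI2, the highest of the other deiminases, averaged 0.634 FPKM over the 8 libraries. PADI2 was called lower in IVF than in SCNT (-1.02 ± 0.40, limma adjusted p = 0.0432). That call was lost with 5 instead of 1 added to FPKM and with the replicate block. It was also lost when any IVF library, or SCNT replicate 2 or 3, was left out. PADI2 left the test under a stricter filter on low values and without SCNT replicate 1 or KDM4E-SCNT replicate 2. It had 0.84 to 1.69 FPKM in SCNT and at most 0.14 FPKM in IVF. It met the filter on low values through SCNT replicate 1 and KDM4E-SCNT replicate 2.

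Receptors of the same family that act in innate immunity were scarce in these embryos. Of 13 names, 10 had a row and 4 were tested. NOD1, NLRP1 and NLRC4 met the filter on low values only through IVF or KDM4E-SCNT, so their values are given without a test, and NLRC5 was not called in any comparison. The sum over the 10 rows was 9.35 and 11.7 FPKM in KDM4E-SCNT, 13.9 to 20.6 FPKM in IVF and 2.81 to 3.94 FPKM in SCNT. NOD1, a sensor of bacterial peptidoglycan, had 4.54 and 5.09 FPKM in KDM4E-SCNT, 9.82, 5.16 and 6.79 FPKM in IVF and 0.27, 1.47 and 0.87 FPKM in SCNT. NLRP1, an inflammasome receptor, had 3.20 and 3.81 FPKM in KDM4E-SCNT, 5.67, 6.03 and 5.04 FPKM in IVF and 0.42, 0.76 and 0.32 FPKM in SCNT. For both genes every SCNT library lay below every KDM4E-SCNT library, and every KDM4E-SCNT library below every IVF library. NLRP3, the best-known inflammasome receptor, did not exceed 0.26 FPKM.

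Proteins that work with NLRP receptors in inflammasomes were read from 18 names, in which DFNA5 and GSDME are symbols of the same gene. Of these names 13 had a row and 9 were tested. In IVF 5 were higher and 1 was lower than in SCNT, and 2 of the 5, MEFV and DFNA5, met the filter on low values only through IVF or KDM4E-SCNT. Of all features, 34.9% were called higher and 23.6% lower in IVF than in SCNT, and 21.6% and 11.0% in KDM4E-SCNT. The count of 5 was 3 when IVF replicate 2 or 3, or SCNT replicate 1 or 2, was left out, and 3 with no filter, and under median-ratio scaling 2 were higher and 2 lower. In KDM4E-SCNT 1, MEFV, which met the filter where it is high, was higher and 1 was lower than in SCNT. That became 4 higher and 1 lower without KDM4E-SCNT replicate 1, 0 and 0 without KDM4E-SCNT replicate 2, and 2 higher and 1 lower without IVF replicate 1 or 2. PYCARD, the adaptor of most inflammasomes, did not exceed 0.20 FPKM. IL18, a cytokine that inflammasomes mature, ran opposite to the members, with 53.8 and 26.5 FPKM in KDM4E-SCNT, 5.43, 0.66 and 5.55 FPKM in IVF and 328.0, 226.7 and 154.7 FPKM in SCNT. Its differences were -5.78 ± 0.51 for IVF minus SCNT (limma adjusted p = 2.72e-06), -2.55 ± 0.57 for KDM4E-SCNT minus SCNT (limma adjusted p = 0.00586) and 3.24 ± 0.57 for KDM4E-SCNT minus IVF (limma adjusted p = 0.00398). The second of these lost its call without KDM4E-SCNT replicate 2 and the third without KDM4E-SCNT replicate 1.

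SUGT1, a co-chaperone of NLR proteins, had 84.4 and 121.0 FPKM in KDM4E-SCNT, 126.9, 190.1 and 107.4 FPKM in IVF and 72.1, 62.4 and 52.7 FPKM in SCNT. It was higher in IVF than in SCNT by 1.14 ± 0.30 (limma adjusted p = 0.00545, and 0.0629 under median-ratio scaling), and KDM4E-SCNT differed from SCNT by 0.70 ± 0.33 (limma adjusted p = 0.12). HSP90AB1, the chaperone with which SUGT1 works, differed by 1.21 ± 0.44 for IVF minus SCNT (limma adjusted p = 0.0316), a call lost under 7 of 17 alternative settings, and by 0.99 ± 0.49 for KDM4E-SCNT minus SCNT (limma adjusted p = 0.138).

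In both comparisons with SCNT the oocyte markers moved with the members. All 10 were higher in IVF and all 10 were higher in KDM4E-SCNT than in SCNT, against 34.9% and 21.6% of all features called higher. Their median differences were 3.21 and 2.29, against 3.01 and 2.08 for the members. FIGLA and NOBOX met the filter on low values only through IVF or KDM4E-SCNT, and the other 8 had at least 1 FPKM in every library. Under either scaling 8 of the 10 were called in KDM4E-SCNT, and without KDM4E-SCNT replicate 2 it was 5 of 10. Between KDM4E-SCNT and IVF 1 of the 10, H1FOO, was called lower (-2.35 ± 0.50, limma adjusted p = 0.0126), as were 0.620% of all features, while no member was. That count was 0 with no filter, with only the 2 groups compared and without IVF replicate 3, and 4 without IVF replicate 2. BMP15, a growth factor of the oocyte and the most abundant of the markers, had 599.7 and 829.4 FPKM in KDM4E-SCNT, 1593, 871.9 and 1384 FPKM in IVF and 205.0, 186.1 and 204.8 FPKM in SCNT. Genes that the embryo activates itself ran the other way. In IVF 5 of 6 were lower than in SCNT, against 23.6% of all features. In KDM4E-SCNT 2 of 6 were lower than in SCNT, against 11.0% of all features. Their sum was 381.3 and 716.7 FPKM in KDM4E-SCNT, 195.4 to 405.1 FPKM in IVF and 730.5 to 1182 FPKM in SCNT. Over the alternatives the count of 2 ranged from 1 to 5. It was 5 under median-ratio scaling and without KDM4E-SCNT replicate 1, 4 without IVF replicate 2, 3 without IVF replicate 3, and 1 without KDM4E-SCNT replicate 2, SCNT replicate 1 or SCNT replicate 3. Of the 5 myeloid and lymphoid markers, PTPRC, CD14 and CD3E were called higher in IVF than in SCNT, as were 34.9% of all features. PTPRC and CD14 reached 1 FPKM only in IVF libraries, through which they met the filter on low values. None of the 5 was called in KDM4E-SCNT against SCNT. The count of 3 was 1 under either scaling and when IVF replicate 3, SCNT replicate 1 or SCNT replicate 3 was left out, and 2 without IVF replicate 1 or with the replicate block. Among cumulus and granulosa markers HAS2 was higher in both groups than in SCNT, and NR5A2 was lower in IVF (limma adjusted p = 0.0103), a call lost without SCNT replicate 3. The part of what these marker lists measure in the members' differences was not tested.

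Many other genes shared the members' pattern. Among 4745 features with a symbol and a mean of at least 10 FPKM, the 5 whose log2(FPKM + 1) over the 8 libraries followed the members' mean most closely were RSU1 (r = 0.997), FAM46B (0.997), AURKA (0.997), TCP11 (0.996) and MKNK1 (0.995). A correlation of at least 0.9 was reached by 1215 of them, or 25.6%, and one of at least 0.99 by 40, or 0.843%. These correlations describe 8 libraries that fall into the 3 groups and share the group differences.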

How the data were processed

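FPKM values, 1 table per library with 21258 features to 2 decimals, were used as the authors deposited them, per the file headers. The submitters' processing notes name UMD3.1 and, with no roles given, RSEM 1.2.12, Bowtie2 2.2.5, StringTie 1.0.4, HISAT 0.1.6 and bcl2fastq 2.16. Per the labels' protocols, cDNA was poly(A)-tailed and amplified; reads of overlapping or near-identical genes may be shared.

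A count test had been foreseen for files with counts; these hold none. Features with at least 1 FPKM in at least 2 libraries (14839) were tested as log2(FPKM + 1) in limma 3.58.1 (R 4.3.3; trend, robust), with all 8 libraries in 1 model of group means. P-values were two-sided, with Benjamini-Hochberg adjustment over all features of a comparison; calls needed an adjusted p under 0.05. FPKM values are given per library, with no read-count interval, and errors of differences are standard errors. The code was tested on simulated data. Alternatives covered pseudocount, filter, scaling, samples, variance model, replicate block and each library left out; those for list genes were added after seeing the data.

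Members and lists were chosen with earlier results of these data known. All members are named, and up to 4 genes per list by mean FPKM; others (MEFV, DFNA5, PADI4, TLE2, NLRP3, PYCARD and the markers) were chosen after their values were seen. RefSeq names of assembly ARS-UCD2.0 served for 174 rows; 6 more were named by hand, NLRP2 from its gene number and the others from descriptions.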

Additional observations from a re-analysis of the deposited data

How the results depend on the processing

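Each result was recomputed under 17 alternatives. For IVF minus SCNT, all 6 members stayed called under each of them, and 6118 to 8828 features were called (7264 to 8822 with 1 library left out). For KDM4E-SCNT minus SCNT, leaving out single libraries gave 1575 to 5251 features and 2 to 6 members called, the lowest in both cases without KDM4E-SCNT replicate 2. For KDM4E-SCNT minus IVF, 967 features were called with all 8 libraries, 541 with only the 2 groups compared, and 291 to 1287 with 1 library left out, the lowest without KDM4E-SCNT replicate 1. In that comparison 0 to 1 members were called, and the NLRP8 difference ran from -0.71 (without KDM4E-SCNT replicate 2) to 0.07 (without KDM4E-SCNT replicate 1, a change of sign, limma adjusted p = 0.993); the cause was not tested. Over single genes, 671 alternative values kept direction and call, 33 lost the call, 9 gained it and 1 changed sign. Same-numbered replicates were not paired by the labels, and their deviations correlated between 0.00649 and 0.123 over features. IVF replicate 3 correlated better with SCNT replicate 1 (0.0702) than with SCNT replicate 3 (0.0277). With the replicate number as a block, 8656, 4252 and 957 features and 6, 5 and 0 members were called in the 3 comparisons, in the order above, NLRP8 being the member not called. The block also called the NLRP13 row (-1.34, limma adjusted p = 0.0379) and the NLRP2 row (-1.87, 0.0369) lower in KDM4E-SCNT than in IVF. FPKM does not give the depth, so how far low rows such as NLRP2 are limited by read number is unknown, and with 2 KDM4E-SCNT libraries 1 of them can decide a call.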
